A study of Mus musculus with 4 samples.

Results

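Amino acid transporters of the solute carrier (Slc) superfamily are membrane proteins, and the arrays measured how much of their messenger RNA lay in the pseudopodia and how much in the cell bodies of fibroblasts. The members were taken by gene symbol: every probe set whose only symbol belongs to the Slc1, Slc3, Slc6, Slc7, Slc36, Slc38 or Slc43 family. This gave 118 probe sets of 58 genes, among 45037 non-control probe sets and 18193 genes with a probe set of their own. The label holds for most members, but some carry other substrates. Slc6a8 carries creatine, Slc6a2 carries noradrenaline, Slc43a3 carries nucleobases, and the Slc3 proteins are partner chains that carry nothing alone.

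The cells were NIH/3T3, an established fibroblast line from mouse embryos, with no other genotype or agent named. They were placed without serum on a porous membrane whose underside alone bore fibronectin, a matrix protein that draws out protrusions, and all 4 samples shared this stimulus. After brief formaldehyde fixation, 1 side of the membrane was wiped clean and the other side was scraped off. There were 2 pseudopodia samples (underside) and 2 cell body samples (upper side), 1 Affymetrix mouse expression array each. The design text calls the samples of a compartment independent without naming separate cultures, so the spread behind each p-value is that of these 4 samples and may be technical. The values are taken here as relative to each sample's own RNA, though no source used here names the scaling. A difference is thus read as one in share of a compartment's RNA. In such bulk samples fewer contributing cells and less RNA per cell cannot be told apart.

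Amino acids cross the plasma membrane by carriers, since they are charged or polar. Exchangers such as Slc1a5 and the Slc7a5/Slc3a2 pair swap one amino acid for another, while sodium-coupled carriers such as the Slc38 proteins pull them in, and a few members sit in the lysosome and report its amino acids to the growth kinase mTORC1. As multi-span membrane proteins they are made on ribosomes bound to the endoplasmic reticulum. The Slc7a2 gene is also known for a long transcript that is held in nuclear paraspeckles and can be cleaved under stress to release the mRNA of the transporter.

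The deposited values are probe set intensities with a floor of 20 on every array, which a signal at background cannot go below. Intensities of different probe sets are not comparable as amounts, so each probe set is compared only with itself across arrays. Each gene was represented by its brightest probe set, and 33 of the 58 genes had a mean at or above the filter, an intensity of 42.0. The other 25 genes were not tested: 12 were at the floor on all 4 arrays and 13 lay above it on some array but under the filter. Of the 33, all but 2 also passed the filter within each compartment: Slc43a2 passed only in cell bodies and Slc6a18 only in pseudopodia, so for these a difference is in part built into the filter. Differences are given as log2(intensity + 1), pseudopodia minus cell bodies, with the standard error (SE) and the Benjamini-Hochberg adjusted p of limma over all 11320 genes tested, at a threshold of 0.05.

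Among the 33 tested genes, 15 were lower in pseudopodia, 1 was higher and 17 did not pass the test. Over all genes tested, 8.69% were lower and 5.92% higher by the same rule. The 15 lower genes were 1.82-fold to 3.20-fold higher in cell bodies, with a median log2 difference of -1.26. They include the carriers that textbooks assign to growing cells: the glutamine exchanger Slc1a5, the leucine exchanger Slc7a5 with its partner Slc3a2, the arginine carrier Slc7a1 and the sodium-coupled Slc38a1. The median over the 33 tested genes was -0.60, against -0.0020 over all tested genes. Both pseudopodia arrays lay below both cell body arrays in 20 of the 33, against 31.4% of all tested genes. In 13 the gap was also at least 2-fold, against 6.07% of all tested genes. With all 4 arrays, 22 of the 33 had an unadjusted p under 0.05 in limma, against 3553 of all 11320 tested genes. Once any 1 of the 4 arrays was dropped, 0 genes passed in limma, members included, although all 15 stayed below 0 and 19 to 21 of the 33 had an unadjusted p under 0.05 (22 with all arrays).

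**Figure D1:**
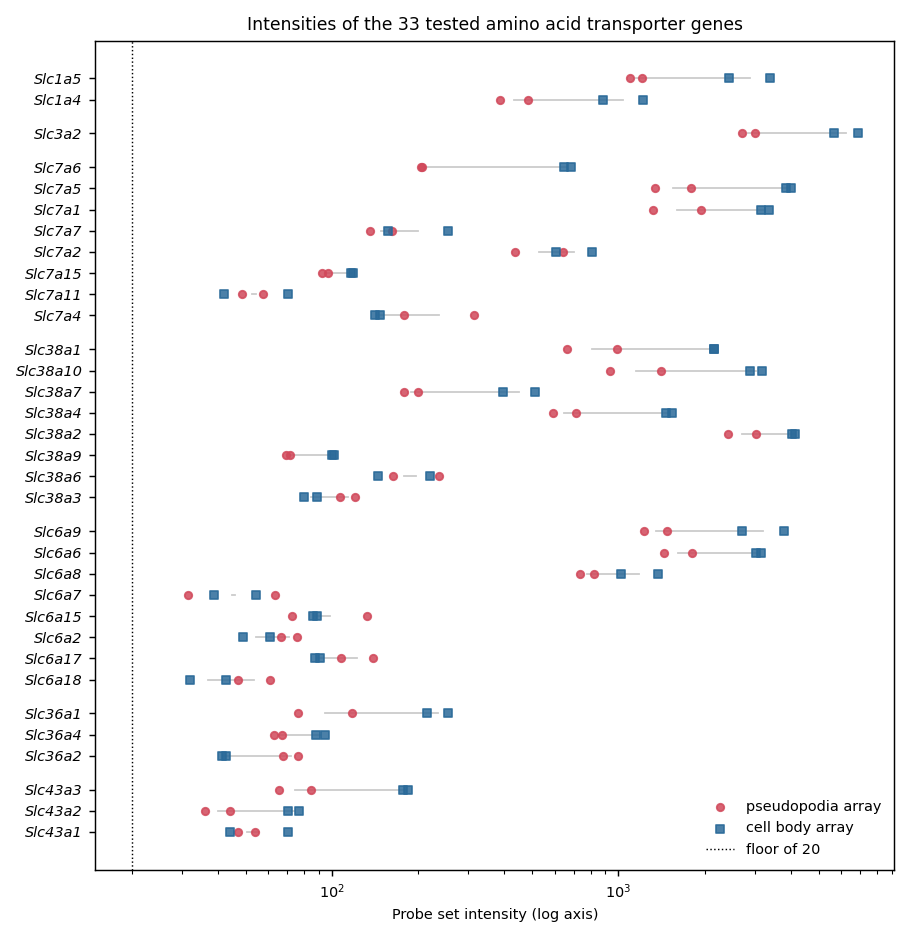
Intensity (log axis) of each tested transporter gene on each array, by family, with red circles for the 2 pseudopodia arrays, blue squares for the 2 cell body arrays and a grey line joining the geometric means. The genes at the right, such as Slc3a2 and Slc7a5, have both red circles left of both blue squares, while most genes under an intensity of 200 show a smaller gap or an overlap.

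The heavy chain Slc3a2 and 2 of its light chains were lower in pseudopodia. Slc3a2 (CD98 heavy chain) carries several Slc7 light chains to the surface. It read 2706 and 2995 in pseudopodia and 6870 and 5663 in cell bodies. The compartments did not overlap, and the gene was 2.19-fold higher in cell bodies (log2 difference -1.13, SE 0.16, adjusted p = 0.0198). Slc7a5 (LAT1), the light chain that brings in leucine and other large neutral amino acids, read 1347 and 1800 in pseudopodia and 4017 and 3849 in cell bodies, which is 2.52-fold higher in cell bodies (-1.34, SE 0.18, adjusted p = 0.0193). Slc7a6 (y+LAT2), which exchanges cationic for neutral amino acids, had the largest fold of the members' brightest probe sets. It read 207 and 205 in pseudopodia and 682 and 644 in cell bodies, a difference of -1.68 (SE 0.13, adjusted p = 0.0166). Its replicate arrays lay far closer to each other than the compartments, which were 3.20-fold apart. The heavy chain and these light chains thus had differences of the same sign, each larger than the spread between replicates.

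The other light chains did not pass the test. Slc7a7 (y+LAT1), close kin of Slc7a6, read 135 and 162 in pseudopodia and 254 and 157 in cell bodies, so the compartments overlapped. Its difference was -0.43 (95% interval -1.12 to 0.26). Slc7a11 (xCT), which exchanges cystine for glutamate, read 48.7 and 57.4 against 70.6 and 42.0, close to the filter, with a difference of -0.043 (95% interval -0.76 to 0.67). These intervals are wide enough to hold a 1.5-fold change in one direction or both. Slc7a8, Slc7a9, Slc7a10 and Slc7a12 lay at the floor on all 4 arrays. Slc3a1, the heavy chain of kidney and gut, was not tested, at 29.2 and 32.4 against 52.2 and 24.1.

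The cationic carriers of the Slc7 family take up arginine, lysine and ornithine. Slc7a1 (CAT1), the housekeeping member, read 1318 and 1941 in pseudopodia and 3161 and 3354 in cell bodies, or 2.03-fold higher in cell bodies (-1.02, SE 0.22, adjusted p = 0.0442). Its nearly equally bright second probe set gave -1.14. In a second fit that took each of 22519 probe sets by itself, that second one passed (adjusted p = 0.0462) and the brightest did not (adjusted p = 0.0570). Slc7a4, a relative with no settled substrate, pointed the other way, at 178 and 314 in pseudopodia against 147 and 141 in cell bodies. Its difference of 0.71 (SE 0.29, adjusted p = 0.174) did not pass, and its dimmer probe set gave -0.17. Among the remaining Slc7 genes, not all of them cationic carriers, Slc7a15 had a difference of -0.31 (adjusted p = 0.180), at 92.4 and 96.9 against 119 and 116. Slc7a3, Slc7a13 and Slc7a14 were not tested, with no array above 29.3.

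Slc7a2 (CAT2) has 4 probe sets, and the 3 above the filter all had differences below 0. The brightest, 1436555_at, read 437 and 643 in pseudopodia and 810 and 604 in cell bodies. The compartments overlapped, and the difference was -0.40 (SE 0.27, 95% interval -1.09 to 0.30, adjusted p = 0.390 over the 22519 probe sets). Probe set 1422648_at read 102 and 111 in pseudopodia and 279 and 162 in cell bodies, without overlap, a difference of -0.998 (SE 0.29, adjusted p = 0.0980). Probe set 1426008_a_at read 53.7 and 50.4 against 155 and 96.2, again without overlap, a difference of -1.22 (SE 0.26, adjusted p = 0.0533), or 2.32-fold higher in cell bodies. The fourth, 1450703_at, lay under the filter, at 20 and 30.3 against 23.0 and 32.5. Thus no Slc7a2 probe set passed the test in the main setting, and the compartments were apart at 2 of the 4, overlapping at the brightest and at the dimmest. Such gaps are common with 2 arrays a side. Over all 11320 tested genes, both pseudopodia arrays lay below both cell body arrays in 3549 and above both in 3334.

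Probe set 1426008_a_at lay close to the threshold. Its adjusted p was 0.0455 with a pseudocount of 16, 0.0430 after quantile normalization and 0.0297 after median centring, but 0.0505 without the _x_at and _s_at probe sets, 0.283 without a filter and 0.128 to 0.148 with 1 array left out. Without either cell body array its difference ranged from -0.88 to -1.56. The sources used here do not say which Slc7a2 probe sets read the long nuclear transcript. The platform annotation gives 1422648_at and 1450703_at the same source sequence, yet they differ in brightness and only the former was above the filter. Whether the probe sets differ from each other beyond the spread of the arrays was not tested. Of the proteins that form paraspeckles, 0 of 12 tested genes passed in limma in either direction (14.6% of all genes did), with a median of 0.18. At an unadjusted p under 0.05 in limma was 1 of the 12, against 3553 of all 11320 tested genes. Tardbp had the lowest adjusted p of these, 0.0841, at a difference of 0.51, while Pspc1, a core paraspeckle protein, had 0.44 (adjusted p = 0.162).

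**Figure D2:**
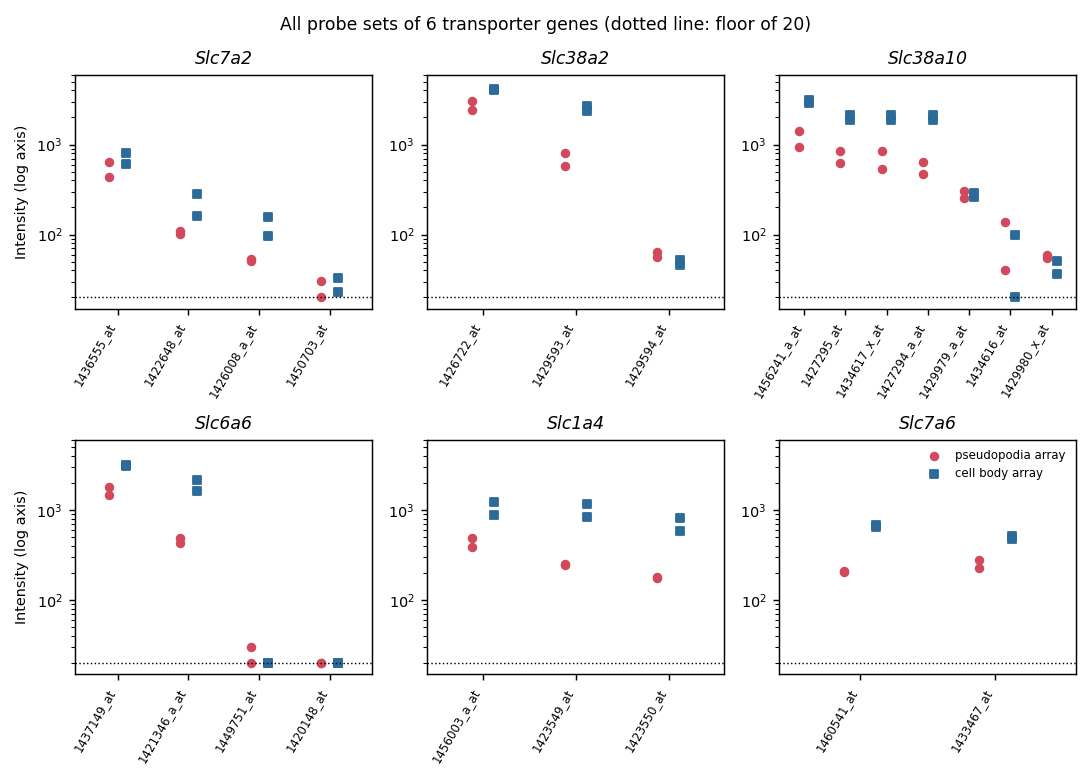
Intensity (log axis) on each array for every probe set of 6 transporter genes, ordered by brightness, with circles for pseudopodia arrays, squares for cell body arrays and a dotted line at the floor of 20. For Slc7a2 the circles and squares mix at the brightest probe set and part at the next 2. For Slc38a10 the circles lie below the squares at the 4 brightest probe sets and not at the dimmer 3.

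The neutral amino acid exchangers of the Slc1 family were both lower in pseudopodia. Slc1a5 (ASCT2), the main glutamine exchanger of many dividing cells, read 1096 and 1212 in pseudopodia and 3382 and 2443 in cell bodies. It was 2.49-fold higher in cell bodies (-1.32, SE 0.20, adjusted p = 0.0218). Its dimmer second probe set fell less and did not pass, at 31.7 and 41.3 against 54.1 and 68.9 (-0.74, adjusted p = 0.0972 on its own). Slc1a4 (ASCT1), which exchanges alanine, serine and cysteine, read 386 and 485 against 1223 and 885 at its brightest probe set (-1.26, SE 0.22, adjusted p = 0.0280). Its 2 other probe sets fell further, with differences of -1.99 and -1.95 (adjusted p = 0.0241 for both, each probe set on its own). At the brightest probe set of both genes the cell body arrays differed from each other more than the pseudopodia arrays did, yet all stayed above every pseudopodia array. The glutamate carriers of the same family, known from neurons and glia, gave no signal to test. Slc1a1, Slc1a2, Slc1a6 and Slc1a7 were at the floor on all arrays. The brightest Slc1a3 probe set read 25.9 and 22.8 in pseudopodia and 20 on both cell body arrays, at least 1.22-fold higher in pseudopodia. Its next probe set read 20 and 22.2 in pseudopodia against 22.9 and 20 in cell bodies, and its others were at the floor. Values this close to the floor give no direction for the gene.

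The Slc38 family holds sodium-coupled carriers of glutamine, alanine and other small neutral amino acids. Of its 8 tested genes, 4 were lower in pseudopodia and 0 higher, against 8.69% and 5.92% of all tested genes. Slc38a1 (SNAT1) read 661 and 988 in pseudopodia and 2156 and 2159 in cell bodies, or 2.67-fold higher in cell bodies (-1.42, SE 0.22, adjusted p = 0.0235). Slc38a4 (SNAT4) read 589 and 712 against 1466 and 1534 (-1.21, SE 0.15, adjusted p = 0.0178). The second probe set of each was lower too, at -1.17 and -0.89. Slc38a7 (SNAT7), which moves glutamine and asparagine out of lysosomes, read 178 and 201 against 512 and 396 (-1.25, SE 0.18, adjusted p = 0.0202).

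Slc38a10 has 7 probe sets above the filter. The brightest read 939 and 1413 in pseudopodia and 3162 and 2893 in cell bodies (-1.39, SE 0.23, adjusted p = 0.0254), and the 3 next brightest fell by 1.47 to 1.85 on the log2 scale. The 3 dimmest did not pass, with differences of -0.00021, 0.39 and 0.71. The last of these read 136 and 40.1 in pseudopodia and 98.8 and 20 in cell bodies, so its replicates differed more than its compartments. The gene thus fell at 4 of 7 probe sets, those with the strongest signal.

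Slc38a2 (SNAT2), which cells induce when amino acids run short, is the family's brightest gene and did not pass at that probe set. It read 2421 and 3028 in pseudopodia and 4045 and 4142 in cell bodies (-0.60, SE 0.16, adjusted p = 0.0750), without overlap. With a stricter filter, which tested fewer genes, it passed (adjusted p = 0.0255), and as the mean of its probe sets it did too (-0.73, adjusted p = 0.0345). The adjusted p was 0.132 after quantile normalization (-0.47) and 0.204 without a filter, so the alternatives moved it both ways. A dimmer probe set read 579 and 809 against 2363 and 2692, a 3.68-fold gap (-1.88, SE 0.22, adjusted p = 0.0241 on its own). The third, near the filter, gave 0.29. Slc38a9, the lysosomal arginine sensor of mTORC1, read 69.0 and 71.5 against 101 and 102 (-0.52, adjusted p = 0.0592). In the probe set fit, 2 dimmer probe sets of it passed, at -1.01 and -1.02, and its dimmest tested one did not (-0.30, adjusted p = 0.334). Slc38a6 overlapped between compartments, with a difference of 0.14 (95% interval -0.60 to 0.88). Slc38a3 (SNAT3), a carrier of liver and brain, had both pseudopodia arrays above both cell body arrays at 107 and 121 against 79.8 and 89.1, without passing (0.43, adjusted p = 0.125). Slc38a5 was at the floor.

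The Slc6 family couples uptake to sodium and chloride and holds the carriers of neurotransmitters. Of 18 genes, 8 were tested, 2 were lower and 0 higher, against the same 8.69% and 5.92%. Slc6a6, the taurine transporter, read 1445 and 1803 in pseudopodia and 3034 and 3152 in cell bodies (-0.94, SE 0.16, adjusted p = 0.0276). Its next probe set read 423 and 486 against 1611 and 2167, a 4.11-fold gap and the widest of any member probe set tested (-2.04, adjusted p = 0.0241 on its own). Slc6a9 (GlyT1), the glycine transporter, read 1229 and 1480 against 3802 and 2704 (-1.25, SE 0.22, adjusted p = 0.0279), and its second probe set gave -1.36. Slc6a8, the creatine transporter, read 824 and 732 against 1024 and 1373. Its arrays did not overlap, but the difference of -0.61 (95% interval -1.11 to -0.11) had an adjusted p of 0.104.

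The remaining tested Slc6 genes were dim and did not pass. Slc6a17, a vesicle carrier of neurons, read 108 and 139 in pseudopodia and 91.3 and 87.5 in cell bodies (0.45, adjusted p = 0.159). Its dimmer tested probe set read 70.1 and 81.0 against 30.4 and 47.9, without overlap (0.96, adjusted p = 0.0832 on its own). Slc6a18 and Slc6a2, also with both pseudopodia arrays above both cell body arrays, had differences of 0.52 and 0.37. Slc6a15 and the proline transporter Slc6a7 overlapped between compartments, with differences of 0.17 and -0.040. The other 10 genes, among them the serotonin carrier Slc6a4 and the dopamine carrier Slc6a3, were not tested, and Slc6a12, Slc6a14 and Slc6a21 were at the floor on all arrays. Slc6a3, Slc6a5 and Slc6a11 lay above the floor on 1 cell body array each. Slc6a16 read 29.3 and 22.7 in pseudopodia against 20 and 20.4 in cell bodies, and Slc6a19 read 26.0 and 23.3 against 20 and 20. Slc6a4 read 29.8 and 26.4 in pseudopodia and 20, the floor, in both cell body samples, at least 1.40-fold higher in pseudopodia. Slc6a13, a GABA carrier, read 20 and 22.8 in pseudopodia against 41.5 and 42.7 in cell bodies. Signals this close to the floor show little more than that the probe set is near background.

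The Slc36 proteins couple amino acids to protons, in part at the lysosome. Slc36a1 (PAT1) read 117 and 76.1 in pseudopodia and 254 and 215 in cell bodies (-1.30, SE 0.25, adjusted p = 0.0337). Slc36a4 (PAT4) read 66.9 and 62.6 against 87.8 and 94.9 without passing (-0.49, adjusted p = 0.0756). Slc36a2 (PAT2) was the member that passed in the other direction. It read 76.3 and 67.6 in pseudopodia and 41.5 and 42.9 in cell bodies, or 1.69-fold higher in pseudopodia (0.75, SE 0.14, adjusted p = 0.0308). Its cell body intensities lay at the filter and at little over 2 times the floor, and it rests on 1 probe set. The lower genes Slc3a2, Slc7a5, Slc36a1, Slc38a7 and Slc43a3 also rest on 1 probe set each. Slc36a3 was not tested, at 37.3 and 23.5 against 28.7 and 27.1.

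In the Slc43 family, Slc43a3 read 84.6 and 65.7 in pseudopodia and 178 and 185 in cell bodies (-1.27, SE 0.17, adjusted p = 0.0188). Slc43a2 (LAT4), which lets large neutral amino acids out of cells, read 36.2 and 44.2 against 76.7 and 70.5 (-0.86, SE 0.16, adjusted p = 0.0318), and it passed the filter only in cell bodies. Slc43a1 (LAT3) overlapped, at 47.2 and 54.0 against 44.3 and 70.1.

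**Figure D3:**
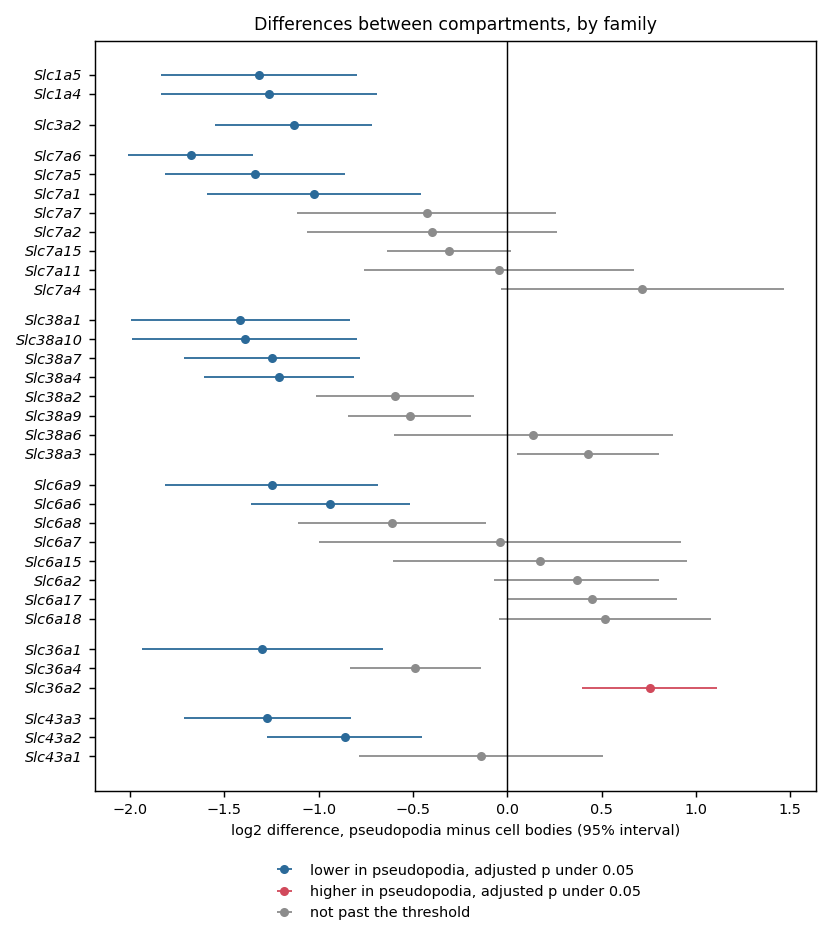
Log2 difference, pseudopodia minus cell bodies, with its 95% interval from limma, for the 33 tested transporter genes by family. Blue marks the 15 genes lower in pseudopodia, red the 1 gene higher (Slc36a2) and grey the 17 that did not pass the adjusted threshold.

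Several genes had more than 1 probe set to compare. Of the 17 genes with at least 2 tested probe sets, 11 were below 0 at all of them, 3 were above 0 at all of them (Slc38a3, Slc6a17 and Slc6a2) and 3 had both signs (Slc38a10, Slc38a2 and Slc7a4). At the level of probe sets, 28 of 60 tested were lower and 1 higher, against 7.44% and 4.30% of all tested probe sets. The 28 belong to 17 genes, which adds Slc38a2 and Slc38a9 to the 15 above. In Slc1a4, Slc6a6 and Slc7a2 the brightest probe set had the difference nearest 0, and the probe sets spread over more than 0.5 on the log2 scale. Both probe sets of Slc7a6 were lower, by 1.68 at the brightest and 0.97 at the other.

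The lower calls lay mostly among the genes with strong signal. At a mean intensity of at least 200, a line drawn after the values were seen, all 15 members had differences below 0, as had 54.9% of all tested genes of that brightness, and 12 were called lower, against 10.4% of those genes. The 3 not called were Slc38a2, Slc6a8 and Slc7a2. Among the 18 dimmer members, 3 were lower (Slc36a1, Slc43a2 and Slc43a3), 1 was higher and 14 did not pass. The medians were -1.25 for the brighter members and -0.042 for the dimmer ones, and -0.046 and 0.087 for all genes of the same brightness. Near the floor a probe set can show little of a difference, so the dim members are not shown to be evenly shared.

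**Figure D4:**
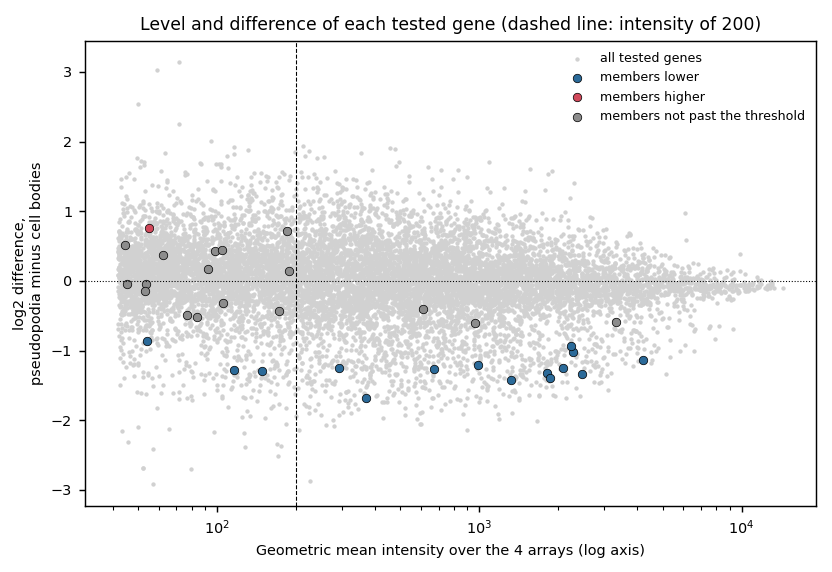
Log2 difference, pseudopodia minus cell bodies, against the geometric mean intensity (log axis) for all 11320 tested genes (pale dots) and the 33 transporter genes (outlined dots, blue for lower, red for higher, grey for not past the threshold). Right of the dashed line at 200 the 15 outlined dots lie below 0, and left of it they scatter around 0.

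Lower calls were also frequent among metal ion carriers, but not among mitochondrial carriers. Of 25 tested metal ion carriers (Slc11, Slc30, Slc39, Slc40 and Slc41), 12 were lower in pseudopodia and 0 higher (8.69% and 5.92% of all tested genes), with a median of -0.76. Of 35 tested mitochondrial carriers (Slc25), which are made on free ribosomes and imported, 0 were lower in limma and 1 was higher, and the median was -0.0044. At an unadjusted p under 0.05 were 3 of these 35, against 3553 of all 11320 tested genes. For the amino acid transporters, 15 of 33 were lower and the median was -0.60. Whether the families differ was not tested.

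Among genes that use or sense amino acids, the counts below stand beside 8.69% lower and 5.92% higher over all tested genes. Those at an unadjusted p under 0.05 stand beside 3553 of all 11320 tested genes. Of 22 tested cytosolic aminoacyl-tRNA synthetase genes, which load amino acids onto tRNA, 1 was lower and 0 higher, with a median of -0.063. The lower one was Vars, for valine, at 1817 and 1780 in pseudopodia against 2734 and 2791 in cell bodies (-0.62, SE 0.13, adjusted p = 0.0396). Of 28 tested genes of amino acid sensing at the lysosome, 0 passed in limma in either direction and 7 had an unadjusted p under 0.05, with a median of -0.066. The lowest adjusted p there was 0.0592, for the mTORC1 inhibitor Tsc2 at -0.58, followed by Flcn at -0.61, while the Ragulator subunit Lamtor2 had 0.59 and Fnip1 had 0.87 (adjusted p = 0.0840). Of 6 tested genes of arginine use and 8 of glutathione and cystine use, 0 passed in limma, and 0 and 1 had an unadjusted p under 0.05. Asl had -0.51 and Gclc, the rate-limiting enzyme of glutathione synthesis, had -0.52 (adjusted p = 0.0750).

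The amino acid response is the programme through which the transcription factor ATF4 turns on carriers and synthesis enzymes when amino acids are short. Of 18 tested genes of that list, 0 passed in limma in either direction (14.6% of all genes did), and the median was -0.13. Also 0 of the 18 had an unadjusted p under 0.05, against 3553 of all 11320 tested genes. Shmt2 had -0.32 (adjusted p = 0.179), Chac1 -0.30, Stc2 -0.38 and Ddit3 0.40. Carriers that the same factor is known to induce are given here as examples, not as a full list. Slc7a5, Slc3a2 and Slc1a5 were lower in pseudopodia, while Slc7a11 (-0.043) and Slc38a2 (-0.60) did not pass.

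ATF4 binds with C/EBP partners to a composite element whose core is TGATGNAA. After the values were seen, the promoters of the members were searched for it. RefSeq promoters (GRCm38.p6, 250 bases before to 50 after the start) were held for 41 of the 58 members. On either strand the core occurred in a promoter of 4 of the 41, among them 3 of the 19 tested members, and of 4.51% of all 27025 genes with promoters there. Counted by promoter, 3.97% of all 32851 held it. A match is only a match of letters, and whether the element bears on the compartment of an mRNA was not tested. The windows below, printed 5′ to 3′ on the gene's strand with the core in capitals, show Slc1a4, the 1 match among the 10 lower members searched, and the 2 other tested members with a match, Slc7a11 and Slc7a7. The Slc1a4 window is chr11:20332699-20332728, the Slc7a11 window chr3:50443616-50443735 and the Slc7a7 window chr14:54418022-54418141, all on the minus strand.
Slc1a4: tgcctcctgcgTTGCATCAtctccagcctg
Slc7a11: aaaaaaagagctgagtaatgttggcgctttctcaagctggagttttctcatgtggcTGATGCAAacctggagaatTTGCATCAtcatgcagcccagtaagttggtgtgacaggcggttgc
Slc7a7: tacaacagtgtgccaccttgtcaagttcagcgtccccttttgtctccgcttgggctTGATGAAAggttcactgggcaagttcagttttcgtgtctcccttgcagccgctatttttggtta
Slc7a11 holds the core in both orientations a few bases apart, and its mRNA gave the overlapping values above. Slc1a4 holds it on the opposite strand at the start site and was lower in pseudopodia at all 3 probe sets. Slc7a7 also holds a further core at a start site, in a window not printed here, and did not pass.

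Of 11 tested proteins that steer or degrade carriers, 2 were lower and 0 higher, against 8.69% and 5.92% of all tested genes. Bsg (basigin), a chaperone of monocarboxylate carriers that also joins CD98 complexes, read 3092 and 3226 in pseudopodia and 6434 and 6374 in cell bodies (-1.02, SE 0.13, adjusted p = 0.0182). Itgb1, the integrin chain that CD98 heavy chain binds, was also lower (-1.07, SE 0.16). The ubiquitin ligase Nedd4l had -0.55 (adjusted p = 0.0861) and the carrier adaptor Arrdc3 0.39 (adjusted p = 0.146).

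**Figure D5:**
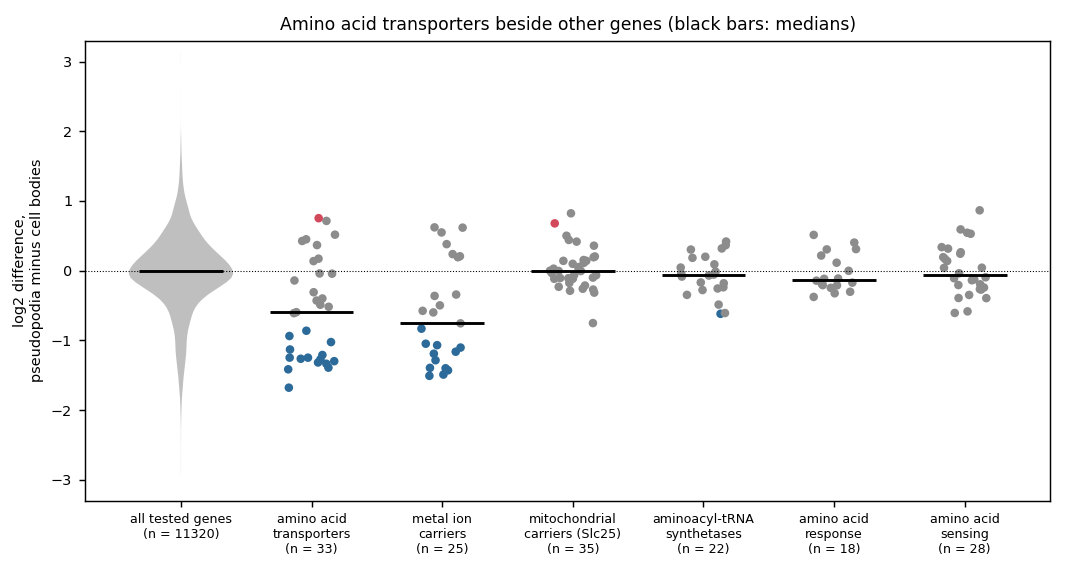
Log2 differences, pseudopodia minus cell bodies, for all 11320 tested genes (grey outline) and for single genes of 6 sets (dots, blue lower, red higher, grey not past the threshold), with black bars at the medians. The medians of the amino acid transporters (-0.60) and metal ion carriers (-0.76) lie below 0, and those of the Slc25 carriers (-0.0044) and synthetases (-0.063) lie near it.

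Some features of the arrays moved with the compartments and their part in these differences was not tested. For Actb, the 3′ over 5′ signal, a measure of RNA integrity, had log2 values of 0.56 and 0.65 in pseudopodia against 0.37 and 0.36 in cell bodies. The same value was higher in pseudopodia by 0.026 for Gapdh and 0.069 for pyruvate carboxylase, and for 18S rRNA it was 2.46 and 1.35 in pseudopodia against 2.77 and 3.06, the other direction. Both pseudopodia arrays were scanned before both cell body arrays, per the array records, so scan order and compartment cannot be told apart. Of 11 tested fibroblast markers, 11 had differences below 0 and 4 were lower, against 50.3% and 8.69% of all tested genes, with summed intensities over 14 markers of 64304 to 64625 in pseudopodia and 80888 to 89974 in cell bodies. The defining fibroblast gene Col1a1 was bright on all arrays, at 3031 to 8939, while the fibroblast surface marker Thy1 was at the floor on all 4. Of the tested markers of other cell types, 0 of 7 epithelial, 0 of 5 haematopoietic and 0 of 2 neural genes passed in limma in either direction. At an unadjusted p under 0.05 were 2, 2 and 0 of them. Over all 11320 tested genes, 14.6% passed and 3553 had an unadjusted p under 0.05. Of 5 tested kidney and gut genes, 1 was lower, Aqp1 (-1.10). Only 2 of the 5 had differences below 0, and their median was 0.36. Summed intensities of kidney and gut markers were 4312 and 4177 in pseudopodia and 8324 and 8297 in cell bodies. Those of epithelial markers were 3053 and 3055 against 4066 and 3382, so both sums lay lower in pseudopodia without overlap. A sum is weighted to its brightest probe sets, and most tested kidney and gut genes did not share its direction. The sums of haematopoietic (393 to 512) and neural markers (581 to 677) overlapped. The neuronal Snap25 and the kidney gene Umod were at the floor on every array and the leukocyte gene Ptprc on 3 of 4. Epithelial genes differed widely. Epcam and Krt14 read 248 to 604 and 1835 to 2665, each at an _x_at probe set. Krt18 was at the floor on all 4 arrays, and Krt19, Ocln and Cldn7 read 20 to 39.3. Cldn4, Krt5, Krt8, Cdh1 and Cldn3 read 31.2 to 356.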

How the data were processed

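RNA of 2 pseudopodia and 2 cell body samples was read on 1 array each. The authors deposited linear probe set intensities with a floor of 20; no source used here names the summary method, the scaling or the software. Array medians were 40.5 to 45.6, and the number of arrays limits the precision. Grouping follows the sample titles.

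Here log2(intensity + 1) was taken without further scaling, without the 64 control probe sets. Of the rest, 34945 had 1 symbol in the platform annotation, 932 several and 9160 none; 58 of 58 member symbols matched RefSeq gene IDs. The brightest 1-symbol probe set stood for each gene, and genes with a mean log2 below 5.42, the median over non-control probe sets, were not tested. limma 3.58.1 in R 4.3.3 (lmFit, eBayes, two-sided, no covariate; 2 residual and 2.90 prior degrees of freedom) tested 11320 genes and, separately, 22519 probe sets; 95% intervals are limma's. The fit was tested on simulated data. With 4 arrays a permutation test of 1 gene cannot fall under 33.3%, so none was run.

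Genes are named if they passed, were the brightest of their family, had probe sets of opposite sign or were Slc7a2; others are given for completeness, and up to 4 of each list by lowest p. The members, lists and tests were chosen with earlier results of these data known; the motif search and the line at an intensity of 200 were added after the values were seen. Alternatives were the pseudocount, filter, normalization, probe set choice, left-out arrays and the replicate block.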

Additional observations from a re-analysis of the deposited data

How the results depend on the processing

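The calls need all 4 arrays and the filter on low values. Dropping any 1 array left limma with 0 genes, 0 probe sets, 0 member genes and 0 member probe sets called, with 2797 to 2891 genes and 19 to 21 member genes at an unadjusted p under 0.05; the member median was then -0.68 to -0.54, and the Slc7a2 probe sets ranged over -1.39 to -0.61 (1422648_at), -1.56 to -0.88 (1426008_a_at) and -0.68 to -0.12 (1436555_at). Without a filter, limma called 2 genes and 73 probe sets, 0 member genes (24 at an unadjusted p under 0.05) and 0 member probe sets (40), and the median over all 58 genes, many at the floor, was -0.037. At an unadjusted p under 0.05 were then 3844 of all 18193 genes and 7512 probe sets. With a stricter filter (the 75th percentile), 14 of the 15 members left were lower and the median was -1.25; by the mean of a gene's probe sets it was -0.73. Under the pseudocount of 16, quantile normalization, median centring, no _x_at or _s_at probe sets, the mean of probe sets and the replicate block, 15 to 17 member genes were called and each of the 15 lower genes stayed below 0; quantile normalization lost Slc7a1 (adjusted p = 0.0572) and the mean of probe sets lost Slc38a10 (0.0662). Quantile normalization left 839 genes higher and 897 lower. Slc7a2 1426008_a_at passed with a pseudocount of 16 (-1.03), quantile normalization (-1.23), median centring (-1.18) and the replicate block (-1.22, adjusted p = 0.0369). The block raised the calls to 2202 genes and left 16 member genes; the replicate numbers share a correlation of 0.34 across genes, but nothing in the labels pairs them. The sign of 5 members that did not pass turned with an array left out, over ranges of -0.17 to 0.44 (Slc38a6), -0.47 to 0.18 (Slc43a1), -0.26 to 0.60 (Slc6a15), -0.53 to 0.45 (Slc6a7) and -0.41 to 0.32 (Slc7a11); no other tested member changed sign under these alternatives. Of the members that did not pass, Slc38a2 and Slc6a8 (adjusted p = 0.0414) passed with the stricter filter, and Slc38a2 and Slc38a9 (0.0411) by the mean of probe sets. The causes of these changes were not tested.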
